A study of Mus musculus with 30 samples.

Results

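The 10 Notch genes described here are the receptors Notch1, Notch2 and Notch3, the ligands Jag1, Jag2 and Dll1, the DNA-binding factor Rbpj, and Hes1, Hes6 and Heyl of the Hes and Hey family. They were chosen by name and by their place in the pathway, out of 17775 genes measured by bulk RNA-seq in mouse pancreatic islet cells, and all 10 passed the filter on low values that left 16633 genes for testing. The 30 libraries came from cells sorted by fluorescence and fall into 5 groups. Alpha (n = 8) is untreated glucagon-producing cells of Glucagon-Venus mice aged 3 months. Alpha DT (n = 4) is alpha-cells of Glucagon-Venus; RIP-DTR mice that received diphtheria toxin at 2 months of age and were sampled 30 days later. RIP-DTR places the toxin receptor under the rat insulin promoter, so that the toxin removes beta-cells. Alpha Pdx1 (n = 5) is alpha-cells of mice carrying Glucagon-rtTA, TetO-Cre, R26YFP and CAG-Pdx1, aged 3 months, in which the glucagon promoter drives the switch that turns on Pdx1, a beta-cell transcription factor. Alpha Pdx1 DT (n = 6) has those same alleles together with RIP-DTR and the same toxin schedule. Beta (n = 7) is insulin-producing cells of Insulin-mCherry mice aged 3 months. Which agent activated rtTA is not stated in the labels. The reporter strain differs along with Pdx1, and RIP-DTR differs along with the toxin, so those pairs cannot be told apart. Beta also differs from every alpha group in reporter strain, so cell type and strain cannot be told apart there either. Nothing in the labels says that libraries came from separate animals, so p-values measure the spread between these samples, which may be technical.

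Notch signalling passes between touching cells. A ligand of the Jagged or Delta-like type on one cell binds a Notch receptor on its neighbour, and the receptor is cut by an ADAM protease and then by gamma-secretase. The freed intracellular domain enters the nucleus, joins Rbpj and a Mastermind coactivator, and turns on genes such as Hes1 and Heyl, which encode repressors. In the developing pancreas the pathway is known for restraining Neurog3 and endocrine differentiation. Hes6 belongs to the same family but is known for opposing Hes1, and Rbpj represses its targets when no receptor domain is bound.

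The values are log2 values, quantile-normalized to judge from their common distribution, so a fold change compares ranks within libraries rather than amounts of RNA. Levels of different genes cannot be compared, because whether the values are per length is not known. There were 5 libraries that stood apart from their groups in Pdx1 or glucagon. Library alpha 8 had a Pdx1 value of 11.23, where the other alpha libraries had at most 5.61. Library alpha Pdx1 DT 5 had a Pdx1 value of 5.51, where the rest of its group had at least 11.53, and it correlated with library alpha 4 across genes at r = 0.993, the highest of all pairs of libraries (second highest 0.986), so the pair may hold the same RNA. In library alpha Pdx1 5 the Pdx1 value was 8.61, below the range of 10.78 to 11.83 in the rest of its group but above the alpha libraries other than alpha 8. Glucagon (Gcg) was at 22.56, the highest value any library holds, in libraries beta 1 and beta 5. The counts and calls below are given with all 30 libraries, and without these 5 wherever that changed a call. Low values are coarse. The lowest value of a library was shared by 102 to 1437 genes, and Notch3 sat at it in libraries alpha 7 and alpha DT 3, as did Heyl in beta 2, beta 4 and alpha Pdx1 DT 6.

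Upstream sequences are printed for 4 members, because these receptors and ligands moved in opposite directions between beta and alpha cells. Notch1 and Jag1 were lower in beta and Notch3 and Jag2 were higher. Each is the 250 bases before a RefSeq start site in GRCm38.p6, read on the gene's strand. The Notch1 window is chr2:26503823-26504072, the Notch3 window chr17:32166891-32167140, the Jag1 window chr2:137116521-137116770 and the Jag2 window chr12:112929496-112929745, all on the minus strand. RefSeq and GENCODE place some starts differently. By the GENCODE gene spans given below, the Notch1 and Jag2 windows lie inside the gene and the Jag1 window overlaps its first bases. Capitals mark matches on either strand to TGGGAA, the core that RBPJ is known to bind, or to 3 kinds of site that Hes and Hey factors are known to bind: the E-box CACGTG, the class C site CACGCG and the N-box CACNAG.
Notch1: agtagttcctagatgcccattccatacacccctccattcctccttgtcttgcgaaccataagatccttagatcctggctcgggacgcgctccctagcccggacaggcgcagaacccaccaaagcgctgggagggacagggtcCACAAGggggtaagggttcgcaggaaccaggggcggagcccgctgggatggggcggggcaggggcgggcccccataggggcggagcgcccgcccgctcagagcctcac
Notch3: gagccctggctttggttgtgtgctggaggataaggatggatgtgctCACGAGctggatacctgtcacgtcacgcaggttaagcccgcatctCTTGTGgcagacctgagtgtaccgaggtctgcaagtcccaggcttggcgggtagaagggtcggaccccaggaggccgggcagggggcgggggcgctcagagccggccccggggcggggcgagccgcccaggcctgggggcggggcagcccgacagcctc
Jag1: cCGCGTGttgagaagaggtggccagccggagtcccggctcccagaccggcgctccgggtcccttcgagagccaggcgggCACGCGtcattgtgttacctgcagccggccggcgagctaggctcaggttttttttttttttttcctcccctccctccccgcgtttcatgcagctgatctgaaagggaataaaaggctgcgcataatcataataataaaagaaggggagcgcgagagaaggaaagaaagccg
Jag2: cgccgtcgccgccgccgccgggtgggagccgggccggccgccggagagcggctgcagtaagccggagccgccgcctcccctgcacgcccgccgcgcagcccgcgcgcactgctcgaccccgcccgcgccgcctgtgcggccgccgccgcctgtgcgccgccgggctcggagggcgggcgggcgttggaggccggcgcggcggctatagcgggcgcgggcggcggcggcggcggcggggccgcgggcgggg
In these 250 bases before the start, Notch1 held 1 CACNAG match, Notch3 held 2, Jag1 held 2 matches to CACGCG and Jag2 held none of these 4 motifs. Of 32851 mouse promoter windows of the same length, 36.7% held CACNAG, 7.62% CACGCG, 6.02% CACGTG and 21.6% TGGGAA, so a CACNAG match is common. Windows were found for 8 of the 10 members. One Rbpj window held 2 TGGGAA matches, and it overlaps the gene's other window, which held 1. The Notch2 window held 1 CACGCG and 1 CACNAG match. A match of letters is a description of the sequence and not a bound site.

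Most of the Notch genes differed in level between beta-cells and alpha-cells. In beta against alpha, 7 of the 10 genes passed an adjusted p of 0.05 (limma, Benjamini-Hochberg over all genes tested), where 34.5% of all genes did, 16.9% higher and 17.6% lower. Notch1, Notch2, Jag1, Hes1 and Heyl were lower in beta and Notch3 and Jag2 were higher, and the count was also 7 without the 5 libraries. Notch3 passed the filter on low values only through beta and Heyl only through alpha, the groups where they are high. The counts here that include these genes therefore depend in part on that filter. After the toxin, 2 genes fell in alpha-cells, Notch1 and Hes1, where 3.26% of all genes passed (1.57% higher, 1.70% lower). With Pdx1 alone 2 fell, Notch1 and Heyl, where 4.33% passed (2.36% higher, 1.98% lower). Alpha Pdx1 DT differed from alpha by 1 gene, Hes1, which was lower, where 7.81% passed (4.06% higher, 3.75% lower). It differed from alpha Pdx1 by 1 gene, Notch1, which was higher, where 9.22% passed (4.83% higher, 4.39% lower). Its difference from beta covered 3 genes, with Notch1 and Notch2 higher and Notch3 lower, where 26.3% passed (12.9% higher, 13.4% lower). The counts for alpha Pdx1 DT are near those shares of all genes, so they are not particular to the Notch genes. All the comparisons above share groups, alpha standing in 4 of them, so they are not independent of one another.

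**Figure D1:**
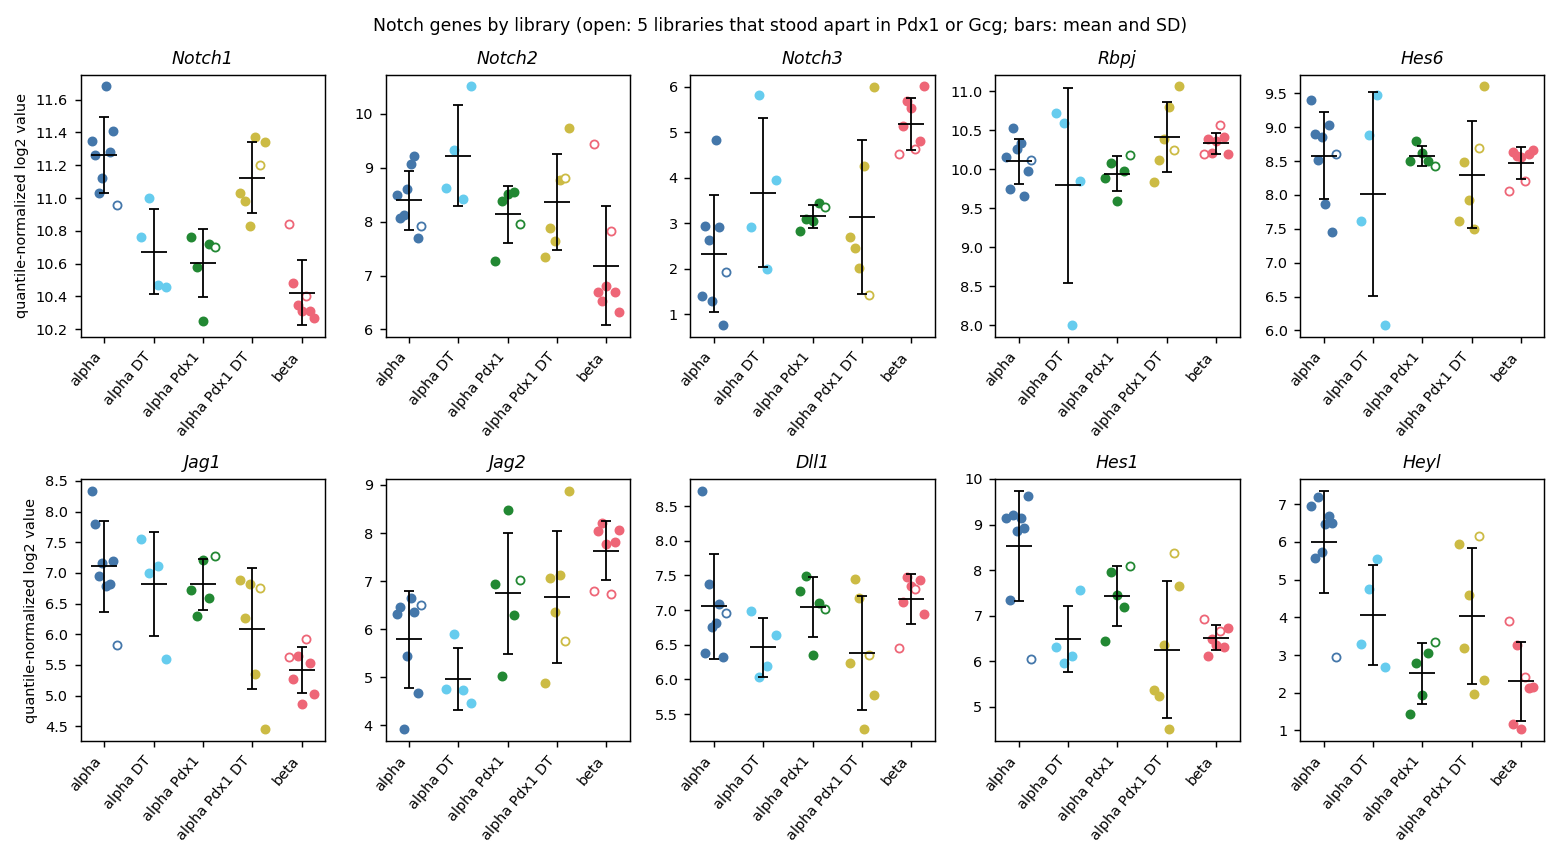
Quantile-normalized log2 values (vertical axis, 1 scale per gene) of the 10 Notch genes in each of the 30 libraries, by group. Each point is a library, open points are the 5 libraries that stood apart from their groups, and bars show the mean and SD. Hes1 is between 7.35 and 9.62 in 7 of the 8 alpha libraries and at 6.06 in the open one.

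The median log2 fold change of the 10 genes in beta against alpha was -0.47, beside 0 over all genes tested. In alpha DT against alpha it was -0.57 beside -0.06, and in alpha Pdx1 against alpha -0.21 beside 0.03. Without the 5 libraries, alpha Pdx1 against alpha had 3 genes past the threshold (Hes1 joined), alpha Pdx1 DT against alpha had 3 (Jag1 and Heyl joined), alpha Pdx1 DT against alpha Pdx1 had 0 and alpha Pdx1 DT against beta had 2 (Notch3 was lost). In alpha Pdx1 DT against alpha DT, where 2.10% of all genes passed (1.78% higher, 0.319% lower), limma called 0 of the 10, and 2 of them, Notch1 and Jag2, had an unadjusted p under 0.05. In alpha Pdx1 against beta 2 genes passed, where 32.9% of all genes did (16.7% higher, 16.2% lower), and 3 without the 5 libraries. In alpha DT against beta 3 passed, near the 30.1% of all genes that did (13.6% higher, 16.6% lower), and 4 without the 5 libraries, Heyl joining. Between alpha Pdx1 and alpha DT limma called 0, where 17.0% of all genes passed (9.82% higher, 7.19% lower), and 2 genes, Notch2 and Jag2, had an unadjusted p under 0.05. No 2 groups that follow each other in the order of a gene's means differed past the threshold, for any of the 10 genes.

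**Figure D2:**
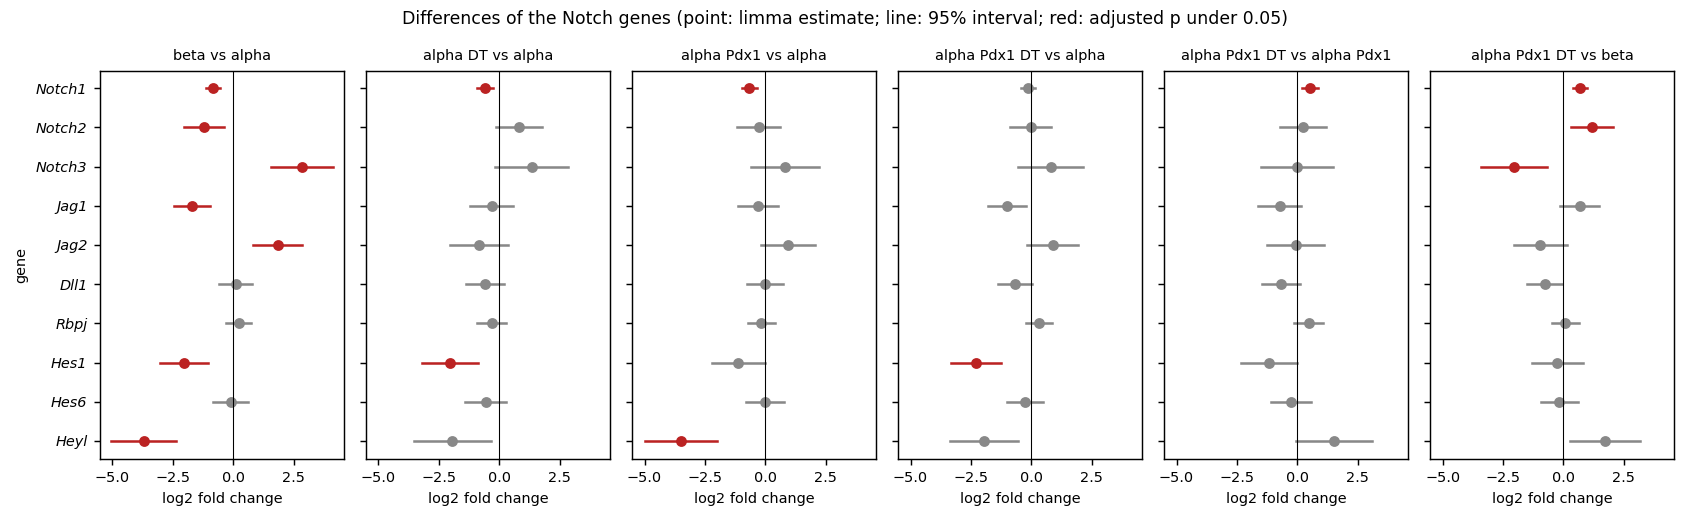
Log2 fold change (horizontal axis) of each of the 10 Notch genes in 6 comparisons, first group minus second. Points are limma estimates, lines are 95% intervals and red marks an adjusted p under 0.05. Heyl has the widest shift in beta against alpha, at -3.71, and Notch1 the narrowest intervals.

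Notch1, the receptor best known from developing tissues and blood (chr2:26457903-26516663 in GRCm38, GENCODE M21, minus strand), was lower in beta, in alpha DT and in alpha Pdx1 than in alpha. Its log2 value in alpha ran from 10.96 to 11.68 with a median of 11.27. In beta it ran from 10.27 to 10.84 with a median of 10.35. Every beta library lay below every alpha library. The mean was 10.42 ± 0.20 (SD, n = 7) in beta and 11.26 ± 0.23 (SD, n = 8) in alpha, a log2 fold change of -0.84 ± 0.13 (SE), or 1.79 times lower in beta, with an adjusted p of 7.85e-06.

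The 4 alpha DT libraries had Notch1 values of 10.76, 11.00, 10.47 and 10.46. Of these, 3 were below every alpha library, and the log2 fold change was -0.59 ± 0.16 (adjusted p = 0.037). That call was lost, with adjusted p from 0.052 to 0.0772, when any one of alpha DT 3, alpha DT 4, alpha 1, alpha 2 or alpha 6 was left out. It was also lost with library weights (-0.41, 0.246), with only the groups compared (0.167), and with Rn18s-rs5 (0.0512) or the immediate early genes (0.0511) as a covariate. The 5 alpha Pdx1 libraries were at 10.76, 10.58, 10.25, 10.72 and 10.70. All of them were below every alpha library, with a log2 fold change of -0.66 ± 0.15 (adjusted p = 0.00918). The ribosomal RNA gene Rn18s-rs5 was also low in alpha Pdx1, at 16.90 to 18.27 against 17.68 to 20.54 in alpha, and with its level as a covariate the Notch1 difference was -0.62 (adjusted p = 0.108).

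In alpha Pdx1 DT, labelled as carrying the Pdx1 alleles and having received the toxin, Notch1 was not low. Its values ran from 10.83 to 11.37 with a median of 11.11, all above the alpha Pdx1 libraries. They include 11.2 in alpha Pdx1 DT 5, the library whose Pdx1 value was only 5.51. The log2 fold change against alpha Pdx1 was 0.52 ± 0.16 (adjusted p = 0.0337), and against alpha it was -0.14 ± 0.14 (95% interval -0.42 to 0.15). Of the leukocyte genes Ptprc, Tyrobp and 7 others, 3 of 9 also rose between these groups, and with their mean as a covariate the Notch1 difference was 0.34 (adjusted p = 0.319). Rn18s-rs5 separated the 2 groups, at 16.90 to 18.27 in alpha Pdx1 and 19.87 to 22.56 in alpha Pdx1 DT, so their parts cannot be told apart, and with it as a covariate the difference was 0.45 (adjusted p = 0.995). The rise over alpha Pdx1 had an adjusted p of 0.0608 without the 5 libraries. It was also lost, with adjusted p from 0.0534 to 0.101, without any one of alpha Pdx1 DT 4, alpha Pdx1 DT 6, or alpha Pdx1 2, 3, 4 or 5, and it passed in 6 of the 12 other fits. Against beta, Notch1 was higher by 0.70 ± 0.14 (adjusted p = 0.000367).

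The interaction term asks whether the change with the toxin differs with and without Pdx1. For Notch1 it was 1.11 ± 0.22 on the log2 scale, with an unadjusted p of 2.06e-05 and an adjusted p of 0.158, a value no gene went below. No gene of the 16633 passed (limma, 0%), and 1527 genes (9.18%) had an unadjusted p under 0.05. Without library alpha DT 2 the adjusted p for Notch1 was 0.0489, and over the 30 leave-outs it ran from 0.0489 to 0.372. In the 12 other fits it ran from 0.134 to 0.824. Of the other members, Heyl had an interaction of 3.47 ± 1.10 (adjusted p = 0.409).

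Notch2, a receptor also carried by many blood cells (chr3:98013527-98150361, plus strand), was lower in beta. Beta values ran from 6.32 to 9.44 with a median of 6.69, and alpha values from 7.69 to 9.22 with a median of 8.31. Of the 7 beta libraries 5 were below every alpha library, and the 2 that were not, beta 1 at 9.44 and beta 5 at 7.82, are those with glucagon at the top of the scale. The log2 fold change was -1.21 ± 0.40 (2.32 times lower in beta, adjusted p = 0.0171), and without the 5 libraries it was -1.86 (adjusted p = 0.000264).

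The libraries with the most Notch2 were also those with the most leukocyte RNA. A mean over 9 leukocyte genes (Ptprc, Tyrobp, Csf1r, Cd68, Lyz2, C1qa, C1qb, Laptm5 and Cd52, all 9 in the table) was 11.07 in alpha DT 4, where Notch2 was at 10.51. It was 10.66 in alpha Pdx1 DT 6, where Notch2 was at 9.73, and 10.39 in beta 1, where Notch2 was at 9.44. By group, that mean ran from 4.23 to 6.99 in alpha, 6.48 to 11.07 in alpha DT, 3.68 to 5.03 in alpha Pdx1, 4.35 to 10.66 in alpha Pdx1 DT and 5.80 to 10.39 in beta. C1qb was at the lowest value of its library in 3 alpha, 2 alpha DT, 3 alpha Pdx1, 1 alpha Pdx1 DT and 1 beta libraries, and the other 8 genes in none. In bulk samples, fewer cells of a type and less RNA per cell cannot be told apart.

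With the leukocyte mean as a covariate, a fit added after the data were seen, Notch2 in beta against alpha was -1.75 ± 0.32 (adjusted p = 4.96e-05). Notch2 in alpha DT was at 8.63, 9.34, 8.43 and 10.51, and its difference from alpha, 0.83 ± 0.47, did not pass (adjusted p = 0.333). Against beta, alpha DT was higher by 2.04 ± 0.48 (adjusted p = 0.0015), and by 1.59 with the leukocyte covariate (adjusted p = 0.00136). Alpha Pdx1 libraries were at 7.28, 8.38, 8.52, 8.55 and 7.95. Alpha Pdx1 DT ran from 7.35 to 9.73 with a median of 8.34 and was higher than beta by 1.18 ± 0.43 (adjusted p = 0.0386). That last call had an adjusted p of 0.0677 to 0.125 without any one of alpha Pdx1 DT 4, 5 or 6, or beta 2, 3, 4, 6 or 7.

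**Figure D3:**
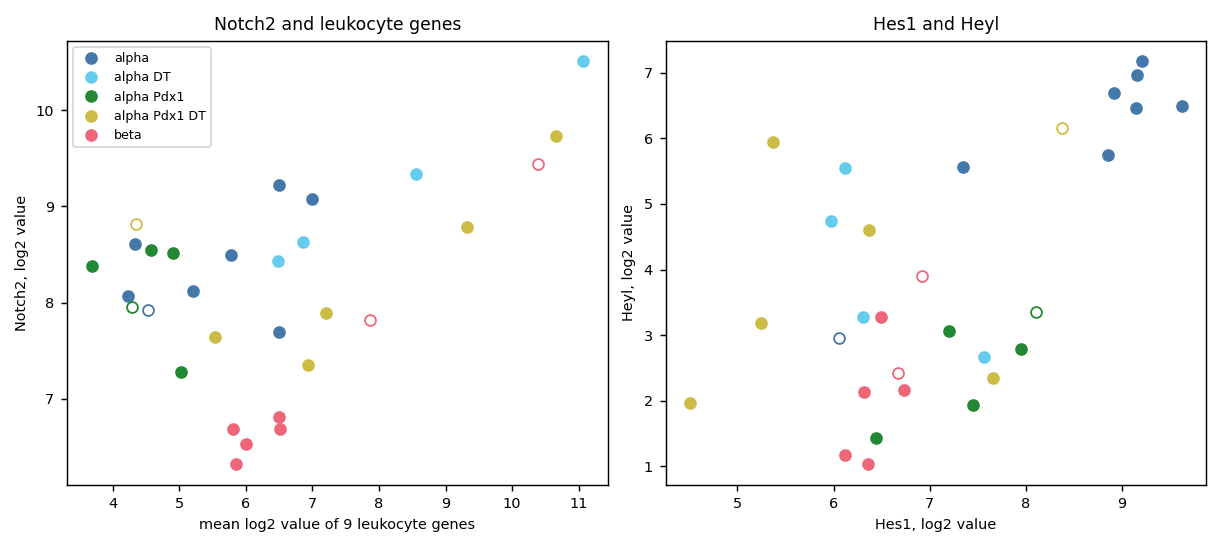
Left, Notch2 log2 value (vertical axis) against the mean log2 value of 9 leukocyte genes (horizontal axis), 1 point per library; the library with the highest leukocyte mean, alpha DT 4 at 11.07, also has the highest Notch2 value, 10.51. Right, Heyl (vertical axis) against Hes1 (horizontal axis), log2 values per library, in the same colours, with the 5 libraries that stood apart from their groups open.

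Notch3, a receptor known from the mural cells of vessels (chr17:32120820-32166852, minus strand), was low throughout and rose in beta. Alpha values ran from 0.76 to 4.83 with a median of 2.28, and beta values from 4.52 to 6.01 with a median of 5.13. Of the 7 beta libraries 4 were above every alpha library, the overlap coming from alpha 5 at 4.83. Beta exceeded alpha by a log2 fold change of 2.86 ± 0.63 (7.26 times higher in beta, adjusted p = 0.000555). With an offset of 16 added on the linear scale, which shrinks differences between low values, it was 1.24 (adjusted p = 0.000948). These values are near the bottom of the scale, and 1 alpha library was at its lowest value. Outside beta, Notch3 reached 5 in fewer than 4 libraries, so it passed the filter only through beta.

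The 4 alpha DT libraries were at 2.91, 5.82, 2.00 and 3.95 for Notch3, the spread of 1.64 (SD) being larger than the 1.34 ± 0.75 by which their mean exceeded alpha (adjusted p = 0.321). Without alpha DT 2 that difference was 0.62. The alpha Pdx1 libraries lay close together at 2.82, 3.09, 3.06, 3.44 and 3.35 and were lower than beta by 2.04 ± 0.71 (log2 fold change -2.04, adjusted p = 0.027; 0.0503 without alpha Pdx1 2 and 0.054 without beta 7). Alpha Pdx1 DT ran from 1.43 to 6.0 with a median of 2.58 and had a log2 fold change of -2.05 ± 0.68 against beta (adjusted p = 0.0232). The adjusted p was 0.0675 without the 5 libraries, and 0.0585, 0.066 and 0.0507 without alpha Pdx1 DT 3, alpha Pdx1 DT 5 and beta 7. So the 3 receptors differed in direction: in beta against alpha 2 were lower and 1 was higher.

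Jag1, a ligand of the Jagged type (chr2:137081456-137116644, minus strand), was lower in beta. Its values ran from 5.83 to 8.34 in alpha with a median of 7.06, and from 4.87 to 5.92 in beta with a median of 5.53. Of the 7 beta libraries 6 were below every alpha library, and the lowest alpha library was alpha 8, labelled as untreated alpha but with a high Pdx1 value. Beta against alpha gave a log2 fold change of -1.70 ± 0.37 (3.24 times lower in beta, adjusted p = 0.000489).

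Among the manipulated alpha-cells, those with Pdx1 alone or the toxin alone had higher Jag1 than beta. Alpha DT was at 7.56, 7.0, 7.12 and 5.59, and alpha Pdx1 at 6.72, 6.29, 7.21, 6.59 and 7.27. Neither differed from alpha past the threshold (-0.30 ± 0.44, adjusted p = 0.752, and -0.30 ± 0.41, adjusted p = 0.771). Each was higher than beta by 1.4, with adjusted p of 0.017 and 0.01, the first of which was 0.0762 without alpha DT 1. The leukocyte mean of alpha Pdx1 lay below all beta libraries, and with it as a covariate the alpha Pdx1 difference from beta was 0.90 (adjusted p = 0.126) for Jag1 and -1.16 (adjusted p = 0.253) for Notch3. Alpha Pdx1 DT ran from 4.45 to 6.88 with a median of 6.51, a log2 fold change of -1.02 ± 0.39 against alpha (adjusted p = 0.0892), which without the 5 libraries was -1.34 (adjusted p = 0.0213), without alpha Pdx1 DT 5 alone -1.15 (0.0403) and without alpha 8 alone -1.20 (0.0447).

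Jag2, the other ligand of the Jagged type (chr12:112907819-112929776, minus strand), went the opposite way. Its beta values ran from 6.74 to 8.20 with a median of 7.81, all above the alpha values of 3.92 to 6.66, whose median was 6.33. This gave a log2 fold change of 1.84 ± 0.50 (3.57 times higher in beta, adjusted p = 0.00407). The 2 lowest beta values, 6.74 and 6.79, belong to beta 5 and beta 1, the libraries with the most glucagon.

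Among the alpha groups alpha DT had the lowest Jag2 mean. Alpha DT libraries were at 4.75, 5.90, 4.74 and 4.46, below all 7 beta libraries (-2.67 ± 0.60 against beta, adjusted p = 0.000928) but within the alpha range (-0.83 ± 0.59, adjusted p = 0.454). Alpha Pdx1 spread widely, at 6.95, 5.02, 8.48, 6.29 and 7.02, and so did alpha Pdx1 DT, from 4.88 to 8.88 with a median of 6.71. Alpha Pdx1 exceeded alpha DT by 1.79 ± 0.65 (adjusted p = 0.0523), and the adjusted p was 0.0238 to 0.0492 without any one of alpha DT 2, alpha Pdx1 2, alpha Pdx1 DT 1, 5 or 6, alpha 3 or alpha 7.

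Dll1, a ligand of the Delta-like type (chr17:15367354-15376872, minus strand), did not pass in any of the 11 comparisons. It ran from 6.32 to 8.72 in alpha and from 6.45 to 7.47 in beta, with medians of 6.89 and 7.31. Its beta against alpha log2 fold change of 0.10 had a 95% interval of -0.57 to 0.77. In alpha DT the values were 6.98, 6.03, 6.19 and 6.64, in alpha Pdx1 7.28, 7.49, 6.35, 7.10 and 7.02, and in alpha Pdx1 DT they ran from 5.28 to 7.45. The lowest adjusted p of its comparisons was 0.106, in alpha Pdx1 DT against beta, where the difference was -0.77 ± 0.35.

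Rbpj, through which all receptors act (chr5:53466152-53657362, plus strand), did not pass in any of the 11 comparisons either. It ran from 9.66 to 10.53 in alpha and from 10.19 to 10.56 in beta, with medians of 10.14 and 10.36, and a log2 fold change of 0.23 with a 95% interval of -0.28 to 0.74. Alpha DT held 1 library far below the others, at 10.72, 10.59, 8.0 and 9.85. Alpha Pdx1 was at 9.89, 10.08, 9.59, 9.97 and 10.18, and alpha Pdx1 DT ran from 9.84 to 11.06. Hes6 (chr1:91411483-91414038, minus strand) was likewise not called in any comparison. Its median was 8.73 in alpha, 8.57 in beta, 8.26 in alpha DT, 8.50 in alpha Pdx1 and 8.21 in alpha Pdx1 DT. Alpha DT had the widest Hes6 range, from 6.08 to 9.48. The beta against alpha log2 fold change of Hes6, -0.11, had a 95% interval of -0.82 to 0.61.

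Hes1, the repressor most often read as the output of the pathway (chr16:30064384-30067796, plus strand), was highest in untreated alpha-cells. Alpha values ran from 6.06 to 9.62 with a median of 9.03, and 7 of the 8 libraries were at 7.35 or above. The exception, at 6.06, was alpha 8. Beta values ran from 6.12 to 6.92 with a median of 6.49. Between the groups the log2 fold change was -2.02 ± 0.48 (4.06 times lower in beta, adjusted p = 0.00129), and -2.49 without the 5 libraries (adjusted p = 3.34e-05), with no overlap between the groups then.

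After the toxin 3 of the 4 alpha DT libraries were inside or below the beta range, with Hes1 at 6.31, 5.97, 6.12 and 7.56. The log2 fold change against alpha was -2.04 ± 0.57 (4.13 times lower, adjusted p = 0.0413), and -2.40 without the 5 libraries (adjusted p = 0.0046). The call was lost, with adjusted p from 0.0501 to 0.115, without any one of alpha DT 1, 2 or 3, alpha 1, 3, 4, 5, 6 or 7, or beta 6. It passed in 6 of the 12 other fits. Among the losses were the immediate early covariate, library weights, only the groups compared, and the fit without trend and robust variances. Leukocyte genes moved with this comparison, 3 of the 9 rising. The 4 delta-cell genes had a mean of 9.94 to 11.76 in alpha DT against 8.36 to 10.40 in alpha. Of these 4 genes 0 passed the threshold, and Rbp4 had a lower median in alpha DT, 13.58 against 13.96. With those means as covariates the Hes1 difference was -2.28 (adjusted p = 0.0669) and -1.73 (adjusted p = 0.14).

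In alpha Pdx1 the Hes1 values were 6.44, 7.95, 7.45, 7.20 and 8.10. The log2 fold change against alpha was -1.11 ± 0.53 (adjusted p = 0.267) with all libraries and -1.63 without the 5 (adjusted p = 0.0265). Those of alpha Pdx1 DT ran from 4.51 to 8.37 with a median of 5.87, and the highest, 8.37, is alpha Pdx1 DT 5, whose Pdx1 was low. Against alpha the log2 fold change was -2.28 ± 0.50 (4.86 times lower, adjusted p = 0.0111), and -3.06 without the 5 libraries (adjusted p = 7.93e-06). It did not pass with only the groups compared (0.0814) or with the Rn18s-rs5 covariate (-2.85, 0.0982). Against alpha Pdx1 it was -1.17 ± 0.56 (adjusted p = 0.178; 0.0407 without alpha Pdx1 DT 5), and against beta -0.26 with a 95% interval of -1.31 to 0.80.

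Heyl, a Hey-type repressor (chr4:123233556-123249875, plus strand), had the largest difference of the 10 genes between beta and alpha. Alpha values ran from 2.96 to 7.18 with a median of 6.47, and beta values from 1.03 to 3.90 with a median of 2.16. All beta libraries were below 7 of the 8 alpha libraries, the eighth being alpha 8 at 2.96. Outside alpha, Heyl reached 5 in fewer than 4 libraries, so it passed the filter only through alpha. Beta against alpha gave a log2 fold change of -3.71 ± 0.66 (13.04 times lower in beta on this scale, adjusted p = 3.85e-05), and -4.49 without the 5 libraries (adjusted p = 1.78e-06). Of the beta libraries 2 were at the lowest value of the library, and with the offset of 16 on the linear scale the log2 fold change was -1.99 (adjusted p = 2.41e-05).

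The 5 alpha Pdx1 libraries had Heyl at 1.43, 2.79, 1.93, 3.06 and 3.35, in the range of beta. Against alpha the log2 fold change was -3.49 ± 0.73 (11.24 times lower, adjusted p = 0.00604), and it passed in all 11 other fits that tested Heyl and all 30 leave-outs. Over those fits its size ran from -4.16, with the Rn18s-rs5 covariate, to -1.96 with the offset. Against beta the difference was 0.21 with a 95% interval of -1.31 to 1.74. The groups that received the toxin were spread between these levels. Alpha DT was at 3.28, 4.74, 5.54 and 2.67 (-1.95 ± 0.79 against alpha, adjusted p = 0.152), and alpha Pdx1 DT ran from 1.97 to 6.15 with a median of 3.90 (-1.97 ± 0.69, adjusted p = 0.0687). Without the 5 libraries the latter was -2.83 (adjusted p = 0.00241), and without alpha Pdx1 DT 5 or alpha 8 alone the adjusted p was 0.0153 and 0.0195. Against beta, alpha Pdx1 DT was at 1.73 ± 0.71 (adjusted p = 0.07), with adjusted p of 0.0273 to 0.0465 without any one of alpha Pdx1 DT 4, alpha Pdx1 DT 6, alpha 8 or beta 1. Whether Hes1 and Heyl differ from each other in these changes was not tested.

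Other measured genes differed along with the beta against alpha comparison. All 11 immediate early genes (Fos, Jun, Egr1 and their like, which dissociation and sorting are known to raise) were lower in beta, with list means of 8.76 to 11.24 there and 12.25 to 13.48 in alpha, ranges that do not overlap. With that mean as a covariate 0 of the 10 Notch genes passed in beta against alpha (limma), and 0 of the 57 other pathway genes tested. The share of all genes that passed in that fit is not given, so the 0 cannot be read as particular to the Notch genes. As the list separates the 2 groups, their parts cannot be told apart. The 6 measured pericyte and mesenchymal genes of 11 listed, with Rgs5 and Col1a2 among them, had means of 4.66 to 8.40 in alpha and 3.61 to 5.49 in beta, and 3 of the 6 were lower in beta. With that covariate 4 Notch genes passed, Notch1, Notch3, Jag1 and Heyl, and Jag2 (adjusted p = 0.0526), Hes1 (0.0718) and Notch2 (0.416) did not. Rgs5 was at the lowest value of its library in 1 alpha and 1 beta library. Of 3 measured endothelial genes none passed in beta against alpha, and their means were 3.85 to 6.71 in alpha and 4.30 to 8.26 in beta.

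The rest of the pathway was read from a list of 70 genes, of which 58 are in the table and 57 were tested. In beta against alpha 8 of the 57 were higher and 12 lower, near the 34.5% of all genes that passed there, and 7 and 12 without the 5 libraries. With the immediate early covariate limma called 0 of them. The ligand Dll4 rose by 2.44 ± 0.51 in beta (adjusted p = 0.00033), with all beta libraries at 6.06 or above and all alpha libraries at 5.04 or below. Mfng, a glycosyltransferase that modifies Notch receptors, rose by 2.69 ± 0.65 (adjusted p = 0.00142). Its values were near the bottom of the scale, 0.76 to 6.17 in alpha and 4.89 to 6.79 in beta, and alpha 4 was at the lowest value of its library. Of the coactivators Maml2 fell by 2.91 ± 0.25 (log2 fold change -2.91, 7.49 times lower, adjusted p = 4.67e-11) and Maml1 had -0.91 ± 0.16 (adjusted p = 2.06e-05). The corepressor Tle3 rose by 2.07 ± 0.25 and Tle4 fell (-0.82 ± 0.31, adjusted p of 5.37e-08 and 0.0371). Among ubiquitin ligases, Mib1, which acts on ligands, rose by 0.70 ± 0.16 and Dtx2, which acts on receptors, rose by 1.69 ± 0.36. The helix-loop-helix inhibitors Id1 and Id3 fell, with log2 fold changes of -3.83 ± 0.75 and -3.15 ± 0.56.

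Maml2 separated beta from every alpha group. Its values were 10.74 to 11.53 in alpha, 10.67 to 11.24 in alpha DT, 10.88 to 11.93 in alpha Pdx1 and 10.59 to 11.51 in alpha Pdx1 DT, and 7.45 to 9.79 in beta, where the 2 highest were beta 1 at 9.79 and beta 5 at 9.27. Against beta, alpha Pdx1 was higher by 3.19 ± 0.28 (adjusted p = 1.71e-10), and that difference passed in all 12 other fits. Neurog3, the factor that starts endocrine differentiation, was higher in beta than in alpha (2.94 ± 0.61, adjusted p = 0.00027). Its values were low, 2.07 to 4.19 in alpha and 4.58 to 7.23 in beta, and alpha DT 3 was at the lowest value of its library. Like Mfng, Neurog3 reached 5 in fewer than 4 libraries outside beta, so both passed the filter only through beta. Neurog3 was likewise lower than in beta in alpha Pdx1 (-2.73 ± 0.69, adjusted p = 0.00259) and in alpha DT (-2.54 ± 0.74, adjusted p = 0.0087). In alpha Pdx1 DT, where it ran from 2.35 to 6.93, it was not called against beta.

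In alpha DT against alpha 1 of the 57 rose and 1 fell, near the 3.26% of all genes that passed there, and with only the groups compared limma called 0. The 1 that fell was Neurl1b, a ubiquitin ligase for Notch ligands (-1.54 ± 0.28, adjusted p = 0.00273). The 4 alpha DT libraries were at 7.51, 8.02, 7.55 and 6.86 for Neurl1b, all below the alpha range of 8.31 to 10.11. Alpha Pdx1 DT was at 9.07 to 9.97, higher than alpha DT by 2.00 ± 0.30 (adjusted p = 0.000517), and it was the only 1 of the 57 to pass there (2.10% of all genes did), where 3 rose and 2 fell without the 5 libraries. The interaction for Neurl1b, 1.18 ± 0.39, did not pass (adjusted p = 0.411). The gene that rose after the toxin was Dtx3, an attenuator of the Deltex family (1.44 ± 0.31, adjusted p = 0.00979), and it also rose in alpha Pdx1 DT against alpha Pdx1 (1.62 ± 0.31, adjusted p = 0.0037).

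**Figure D4:**
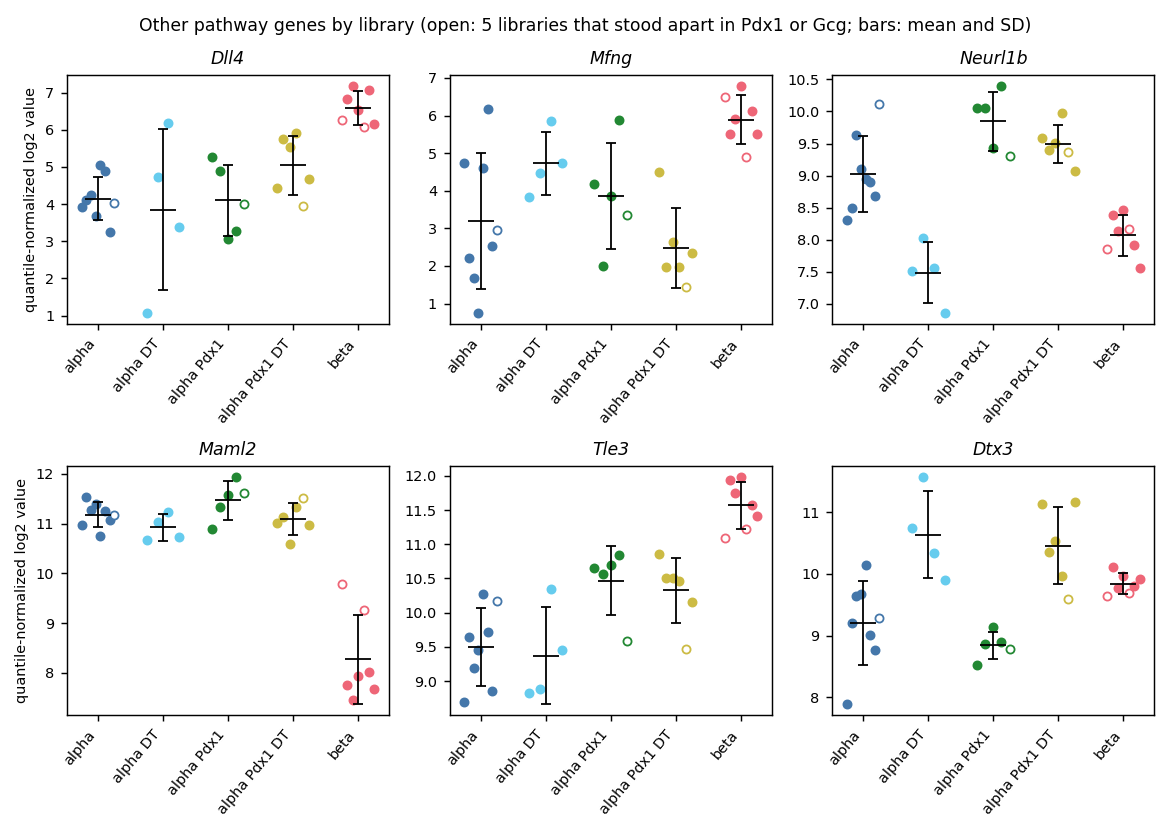
Quantile-normalized log2 values (vertical axis, 1 scale per gene) of 6 other pathway genes by group, with the mean and SD as bars and open points for the 5 libraries that stood apart from their groups. Maml2 in beta lies below 10, while every alpha library is at 10.59 or above, and Neurl1b is lowest in alpha DT.

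With Pdx1 alone 1 of the 57 rose, Tle3 (0.97 ± 0.28, adjusted p = 0.0365), and 1 fell, Ctbp1, another corepressor (-0.77 ± 0.23, adjusted p = 0.0468, and 0.104 without the 5 libraries). These 2 calls are set beside 4.33% of all genes. Without the 5 libraries the counts were 3 and 2, and limma called 0 with the Rn18s-rs5 or immediate early covariate, without trend and robust variances, and with only the groups compared. In alpha Pdx1 DT against alpha Pdx1, where 9.22% of all genes passed, 6 rose and 2 fell. The counts there were 4 and 1 without the 5 libraries, 2 and 0 with the leukocyte covariate, and 0 and 0 with the Rn18s-rs5 covariate. Epn1, an adaptor for ligand uptake, rose by 1.57 ± 0.25 (adjusted p = 0.000997) and the gamma-secretase subunit gene Psenen by 1.41 ± 0.38 (adjusted p = 0.02), while its partner Psen2 fell (-0.83 ± 0.27, adjusted p = 0.0498), a call that passed in 3 of the 12 other fits. Against alpha, where 7.81% of all genes passed, 4 rose and 3 fell in alpha Pdx1 DT. Without the 5 libraries 8 rose and 6 fell, and with the Rn18s-rs5 covariate or only the groups compared limma called 0. Against beta 10 were higher and 5 lower, which is near the 26.3% of all genes that passed, and with the immediate early covariate limma called 0. Maml2 was at 2.82 ± 0.27 and Mfng at -3.41 ± 0.70. Mfng passed the filter only through beta, and its alpha Pdx1 DT values, 1.43 to 4.5, were near the bottom of the scale. Library alpha Pdx1 DT 6 was at its lowest value for Mfng, so the size of that difference is uncertain. Median log2 fold changes of the 57 genes were between -0.07 and 0.10 in all 11 comparisons.

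For each member the 3 genes with the most similar pattern over the 30 libraries were found by Pearson's r, as a description, since the libraries share group, depth and normalization. Notch2 was most like Cd97 (r = 0.868), Galm (0.857) and Ehf (0.856), and for Cd97 the r of deviations from group means was 0.864. Heyl was most like Id1 (0.793), Serpina1b (0.783) and Itih2 (0.78). Hes1 was most like Upk3a (0.861), Sytl5 (0.77) and Rpl7a-ps7 (0.763). Jag1 was most like 2 ribosomal protein genes, Rpl27a (0.898) and Rpl12 (0.883), and Resp18 (0.883). Notch1 was most like Sepn1 (0.814), Atf7ip (0.8) and Lrp1 (0.792), and its r of deviations with them was only 0.497 to 0.581. The closest genes for Notch3 were Oasl2, Sdc3 and Lrp5, for Jag2 Prpf8, Pctp and Pard3, for Dll1 Lamtor3, Tgds and Mtrf1, for Rbpj Tmem170, Sgsm2 and Tmem245, and for Hes6 Eif2b1, Noxo1 and Cd2bp2, with r from 0.753 to 0.844.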

How the data were processed

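Mouse islet cells sorted by fluorescence were profiled by bulk RNA-seq in 30 libraries, which the labels place in 5 groups. GSNAP was the aligner and GRCm38 the build, as named in the submitters' processing notes. How reads were counted and normalized was not given in the sources used here. What the authors deposited is 1 table of log2 values for 17775 genes, quantile-normalized to judge from their common distribution, so depth is unknown and no counting interval is given. Of these genes, 1142 that reached 5 in fewer than 4 libraries were dropped and 16633 tested. Among the members, Notch3 passed this filter only through beta and Heyl only through alpha. limma 3.58.1 (R 4.3.3) was fitted with a mean for each group and trended, robust variances, and it was tested on simulated data. Its two-sided p-values were Benjamini-Hochberg adjusted over all genes in each of 11 comparisons (threshold 0.05). Alternatives were 12 other fits, 2 of them chosen after seeing the data, and 30 that each left out 1 library. Gene positions are from GENCODE M21 and upstream sequences from RefSeq.

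All 10 Notch genes are named, with up to 2 other pathway genes per group and comparison, those past the threshold with the largest fold change, and 3 similar genes per member. Members and lists were chosen with earlier results of these data known. Listed genes missing from the table were not analysed here. The labels give no batch.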

Additional observations from a re-analysis of the deposited data

Results flagged for a closer look

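Of 50 sets, each 1 of the 10 Notch genes in 1 group, 3 held a library whose gap to the nearest other exceeded the 95% limit of Dixon's test, which chance reaches in about 1 of 20 groups. Notch1 in library beta 1 was at 10.84, with the other beta libraries between 10.27 and 10.48. That library also had glucagon at the highest value and a leukocyte mean of 10.39. Dll1 in library alpha 1 was at 8.72, with the other alpha libraries between 6.32 and 7.37. Heyl in library alpha 8, the alpha library with high Pdx1, was at 2.96, with the others between 5.56 and 7.18. A count of 3 in 50 is near that chance rate, and what, if anything, sets these 3 values apart was not tested.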

How the results depend on the processing

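The counts of Notch genes past the threshold depended on the fit in most comparisons. Shares of all genes that passed are given for the main fit only, so a changed count need not be particular to the Notch genes. In beta against alpha (7) the count was 0 with the immediate early covariate and 4 with the pericyte and mesenchymal covariate, and 7 in every fit that left out 1 library. In alpha DT against alpha (2) it was 0 with the immediate early covariate, with library weights and with only the groups compared, and 1 with the delta, leukocyte or Rn18s-rs5 covariate or without trend and robust variances, and 0 to 2 in the leave-outs. In alpha Pdx1 against alpha (2) it was 1 with the Rn18s-rs5 covariate and with the stricter filter, and 2 in every leave-out. In alpha Pdx1 DT against alpha Pdx1 (1) it was 0 with the delta, immediate early, leukocyte or Rn18s-rs5 covariate, with only the groups compared and without the 5 libraries, and 2 with library weights; the leave-outs gave 0 to 2. In alpha Pdx1 DT against beta (3) it was 0 with the immediate early covariate, 1 with the pericyte and mesenchymal covariate and 6 with library weights, and 1 to 5 in the leave-outs. In alpha Pdx1 DT against alpha (1) it was 0 with only the groups compared and with the Rn18s-rs5 covariate, 2 with library weights, with the offset or with the pericyte and mesenchymal covariate, and 3 without the 5 libraries, with 1 to 3 in the leave-outs. In alpha Pdx1 against beta (2) it was 0 with the immediate early, pericyte and mesenchymal or Rn18s-rs5 covariate, 1 with the leukocyte covariate and the stricter filter, 4 with only the groups compared and 6 with library weights, and 1 to 3 in the leave-outs. In alpha DT against beta (3) it was 0 with the immediate early covariate and 3 to 4 in the leave-outs. The interaction (0) and alpha Pdx1 against alpha DT (0) gave 0 to 1 in the leave-outs, and alpha Pdx1 DT against alpha DT gave 0 in every fit.

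Alternatives were followed for 38 fold changes of single Notch genes, those past the threshold or of at least 1 on the log2 scale, and 8 of their values changed sign. With the immediate early covariate, beta against alpha was 1.52 for Notch2, -0.43 for Jag2 and 0.30 for Hes1; alpha Pdx1 DT against beta was -1.45 for Notch2 and -0.55 for Heyl; and alpha DT against beta was -0.39 for Notch2 and -0.35 for Heyl. With the leukocyte covariate, Notch2 in alpha Pdx1 against alpha DT was 0.26. That covariate and the delta covariate were chosen after seeing the data. The stricter filter left Notch3 and Heyl untested. The causes of these changes were not tested. No paired analysis was possible because the labels give no replicate numbers, and those used here follow accession order.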
